A study of Homo sapiens with 3 samples.

Results

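A stretch of 1.2 Mb on the short arm of chromosome 6, chr6:1200000-2400000 on the human build hg38, holds the forkhead genes FOXQ1, FOXF2 and FOXC1 and the enzyme gene GMDS. All peaks of ARID1B chromatin immunoprecipitation followed by sequencing (ChIP-seq) in that stretch were taken, which gave 12 of the 1792 peaks of replicate 1 and 13 of the 1820 peaks of replicate 2. Overlapping peaks of the 2 replicates formed 11 regions, out of 1313 in the whole genome. The stretch was chosen by the number of these same peaks in it, so its counts, spacing and scores are given as a description, with no test. The cells were HEK293FRT, a human embryonic kidney line, with no treatment and no altered genotype named. The series held 2 ARID1B samples and 1 input sample from that line. The input was not analysed here, so no background level stands beside the peaks. Nothing in the labels tells separate cultures from repeat preparations, so the spread between the replicates may be technical.

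ARID1B belongs to the BAF (SWI/SNF) complexes, where it contacts DNA; the complexes use ATP to slide or evict nucleosomes and so open promoters and enhancers. Forkhead proteins are transcription factors that bind DNA through a winged-helix domain. FOXC1 is known for the development of the front of the eye, the skull and the kidney, FOXF2 for mesenchyme of the gut, palate and brain vessels, and FOXQ1 for epithelial tissues and hair. GMDS encodes GDP-mannose dehydratase, the enzyme of the first step in making GDP-fucose, the donor of fucose for glycoproteins.

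None of the promoters of these genes lay under a peak. The RefSeq table of promoters (GRCh38.p14) gave 5 windows of 300 bases for the 4 genes, each from 250 bases before a transcription start to 50 after it, and 0 of them were overlapped by a peak of either replicate. Over all 35116 windows of the table, 0.857% were overlapped by a peak of either replicate and 0.51% by a shared region, so a count of 0 in 5 is near the background. The same held for all 15 promoter windows of the 11 genes in the stretch, long non-coding RNA genes included, of which 0 were overlapped. The sequences below are shown because they are what the peaks did not cover: the promoter of FOXC1, which is the promoter of the 4 genes nearest to a peak, and both promoters of GMDS, the gene that held most of the peaks. Capitals mark the GC box GGGCGG and the CCAAT box CCAAT in the first and the third, and the AP-1 site TGANTCA in the second, searched on both strands; no matches overlapped.
FOXC1 promoter, chr6:1609665-1609964, plus strand: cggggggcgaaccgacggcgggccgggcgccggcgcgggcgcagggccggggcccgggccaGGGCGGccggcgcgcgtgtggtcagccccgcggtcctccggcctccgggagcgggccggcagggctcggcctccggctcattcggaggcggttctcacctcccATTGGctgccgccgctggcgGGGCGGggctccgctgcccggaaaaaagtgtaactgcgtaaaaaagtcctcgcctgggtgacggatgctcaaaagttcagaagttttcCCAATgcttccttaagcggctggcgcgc
GMDS inner promoter, chr6:2175942-2176241, minus strand: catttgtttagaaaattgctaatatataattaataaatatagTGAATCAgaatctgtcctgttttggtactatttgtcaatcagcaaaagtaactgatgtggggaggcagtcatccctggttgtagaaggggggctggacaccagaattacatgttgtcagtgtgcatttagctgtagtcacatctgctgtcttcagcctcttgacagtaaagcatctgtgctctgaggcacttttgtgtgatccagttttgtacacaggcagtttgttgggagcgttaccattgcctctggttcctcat
GMDS outer promoter, chr6:2245556-2245855, minus strand: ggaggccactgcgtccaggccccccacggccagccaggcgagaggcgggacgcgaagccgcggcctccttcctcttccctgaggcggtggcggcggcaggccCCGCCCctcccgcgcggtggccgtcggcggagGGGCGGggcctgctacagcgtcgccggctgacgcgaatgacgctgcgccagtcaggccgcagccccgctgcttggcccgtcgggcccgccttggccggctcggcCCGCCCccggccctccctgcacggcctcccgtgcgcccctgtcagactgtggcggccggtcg

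The FOXC1 window held 2 GC boxes and 2 CCAAT boxes, and the outer GMDS window held 3 GC boxes. The FOXQ1 window held 1 GC box and 2 CCAAT boxes and the FOXF2 window 2 GC boxes and 1 CCAAT box. The GC box occurs in 45% of all promoter windows and the CCAAT box in 34.6%. These 4 windows were rich in G and C, at 71.0% to 79.3% against a median of 58.7% over all windows. The inner GMDS window differed from them, with 41.7% G and C and 1 CpG where the outer had 41. It was the single member window with an AP-1 match, which 7.71% of all windows hold. GMDS-DT, a long non-coding RNA gene read away from GMDS, starts 148 bases from the outer GMDS start, so the printed outer GMDS window contains both starts. A match is a string of letters and not a measured site.

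The forkhead genes lie in the order FOXQ1, FOXF2, FOXC1 on the plus strand, and GMDS follows on the minus strand, so that FOXC1 and GMDS end towards each other. FOXQ1 (chr6:1312098-1314758), FOXF2 (chr6:1389576-1395603) and FOXC1 (chr6:1609915-1613897) are 2.66, 6.03 and 3.98 kb long. GMDS (chr6:1623806-2245605) is 621.8 kb long and takes up more of the stretch than everything else in it. The 11 shared regions are numbered here from 1, nearest to the chromosome end, to 11. Region 1 lay between FOXF2 and FOXC1, region 2 at the end of FOXC1, and regions 3 to 11 inside GMDS. Over all 1312 shared regions on annotated chromosomes, 43.9% lay inside a protein-coding gene away from its ends. The stretch was picked for its peaks and is mostly GMDS, so nothing is read from the share inside GMDS. The 112 kb before FOXQ1, the 74.8 kb between FOXQ1 and FOXF2, the 9.91 kb between FOXC1 and GMDS, and the 154 kb after the GMDS start held the middle of no peak of either replicate. FOXQ1 and FOXF2 themselves held none either.

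**Figure D1:**
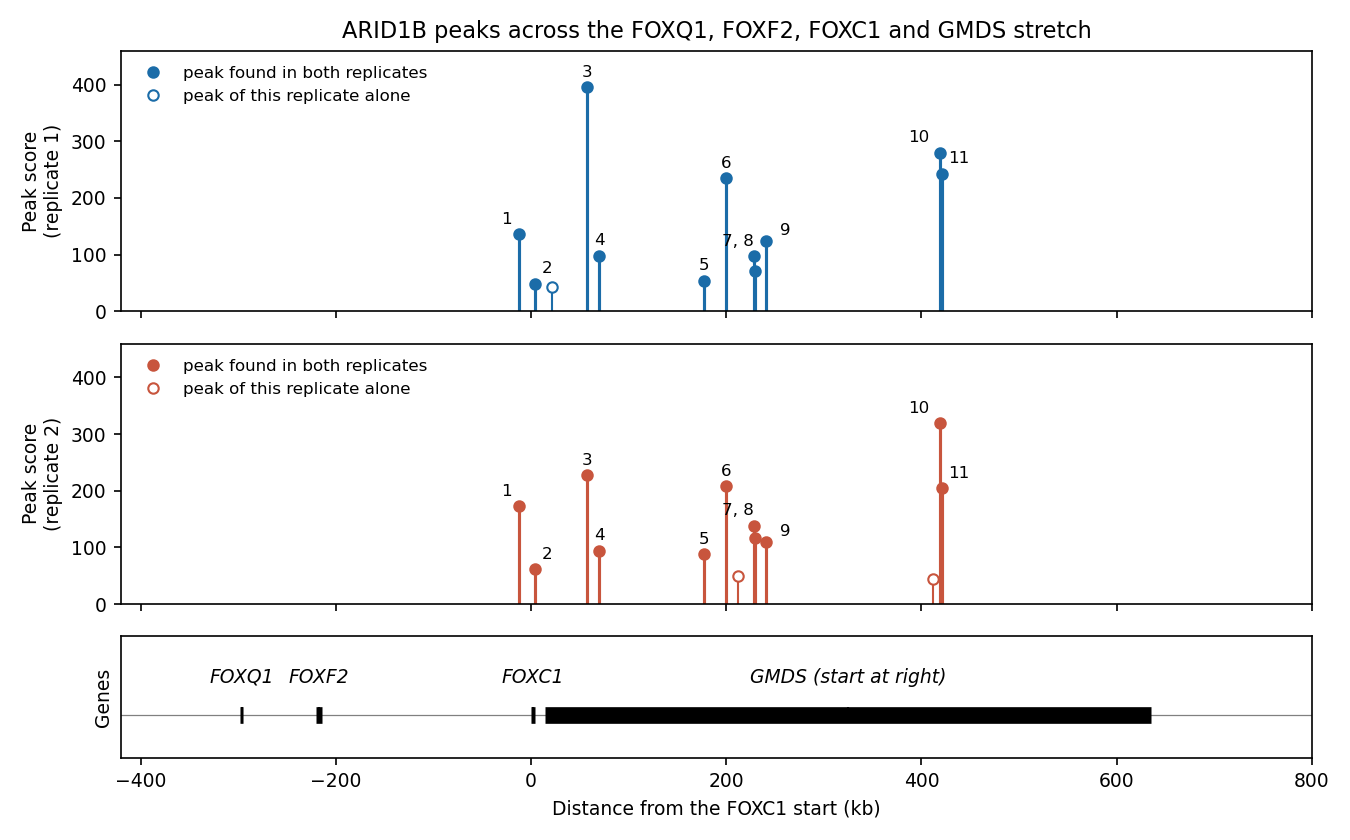
Peak score (linear axis) of replicate 1 (top) and replicate 2 (middle) against the distance of the peak's middle from the FOXC1 start in kb, with the 4 genes drawn to scale below; filled points are the 11 regions found in both replicates, with their numbers, and open points are peaks of 1 replicate. All peaks but those of regions 1 and 2 stand over GMDS, and the left part of the plot, around FOXQ1 and FOXF2, holds none.

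Region 1 (chr6:1597163-1597679) was the one region in an interval between genes. It lay 12.2 kb before the FOXC1 start and 7.85 kb before the start of FOXCUT, a long non-coding RNA gene upstream of FOXC1. Its scores, a whole number that the authors gave each peak on a scale not stated in the sources used here, were 136 in replicate 1 and 173 in replicate 2. They placed it at rank 369 of 1792 and rank 274 of 1820, counting from the highest score. It was also the nearest peak to FOXF2, 201.6 kb beyond the end and 207.6 kb beyond the start of that gene. FOXQ1 was as remote from any peak: the nearest to its start, a peak of replicate 2 alone outside the stretch, was 166 kb away, and the nearest shared region, again region 1, was 285 kb away.

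Region 2 (chr6:1613652-1613981) covered the end of FOXC1, a gene without introns, on the side where transcription stops. Of its bases, 245 lay inside the annotated gene and 84 beyond it in replicate 1, and 246 and 63 in replicate 2. The scores, 49 and 61, were the lowest of the shared regions in both replicates, at ranks 1314 and 1121. The FOXC1 start was 3.74 kb away. With a window of 1000 bp at each gene end, 1 of 11 regions thus lay at a forkhead gene end, where 12.5% of all 1312 shared regions on annotated chromosomes lay at an end of some protein-coding gene. FOXC1 was the 1 member of 4 with a shared region at an end, against 1.05% of all 19866 protein-coding genes; the stretch was picked for its peaks, and nothing is read from that share.

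Inside GMDS the highest scores of replicate 1 belonged to region 3 (chr6:1667060-1667625), with 396 (rank 34) against 227 (rank 152) in replicate 2. That region also lay inside LOC107986514, a long non-coding RNA gene of 11.4 kb within GMDS (chr6:1656873-1668322), 697 bp from its nearer end. The direction of that gene is not given in the tables used, so whether this end is its start was not tested. Region 4 (chr6:1679727-1680035) followed after 12.1 kb with nearly equal scores of 98 and 94. These are the shared regions of GMDS nearest to FOXC1, 53.2 and 65.8 kb beyond its end, and they lie in the last stretch of GMDS to be transcribed.

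A middle group of 5 regions lay from 394 to 458 kb past the outer GMDS start. Region 5 (chr6:1787020-1787491) scored 54 and 88, and region 6 (chr6:1809270-1809751) scored 235 and 208. Regions 7 (chr6:1838642-1838993) and 8 (chr6:1839397-1839675) stood 403 bp apart, the smallest gap of the stretch, and scored 97 and 138, and 71 and 117. Region 9 (chr6:1850722-1851190) scored 124 and 109. Region 6 was the strongest of the group in both replicates, and region 5 the weakest.

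The pair of regions 10 (chr6:2028598-2029106) and 11 (chr6:2030663-2031249) came after an interval of 177 kb without a shared region, and its members were 1.56 kb apart. Region 10 scored 280 and 319, the highest score of the stretch in replicate 2, at ranks 82 and 74. Region 11 scored 243 and 205, at ranks 125 and 176. Both were high in both replicates. They were nonetheless far from any promoter of the gene: region 11, the nearest to a start, lay 144.7 kb past the inner start and 214.4 kb past the outer one. In 4 equal parts of 155 kb from its outer start, GMDS held 0, 2, 5 and 2 shared regions. Exons and introns are not separated in the gene table, so the regions are placed by gene span alone.

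Scores in the stretch were on the high side of the lists. The peaks of replicate 1 scored from 43 to 396 with a median of 111, beside 74 over its whole list, and those of replicate 2 from 44 to 319 with a median of 117, beside 75. A region's percentile is the share of its list that scored lower, and the lower of its values in the 2 lists was taken. Its median was 70.6 over the 11 regions and 48.9 over all 1313. Of the 11 regions, 8 scored at or above the median of both lists, as did 49.5% of all shared regions. Regions 3, 6 and 10 reached the 90th percentile in both lists, as did 9.14% of all shared regions. Region 11 missed it narrowly in replicate 2, at 89.7. Peaks were also wider than the lists' medians, with a median of 417 bp against 290 bp in replicate 1 and 347 bp against 300 bp in replicate 2.

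Most peaks of the stretch were found in both replicates. In replicate 1, 11 of 12 peaks (91.7%, exact Clopper-Pearson 95% interval 61.5 to 99.8) overlapped a peak of replicate 2 by at least 1 bp, and in replicate 2, 11 of 13 (84.6%, 54.6 to 98.1). Over the whole lists 73.5% and 72.4% of peaks did, values inside both intervals. Among peaks scoring at least as high as the lowest of the stretch, 43 and 44, the shares of the lists were 79.1% and 79%. The intervals cover counting error only, and neighbouring peaks of 1 library are not independent, so no difference from the lists is read from these shares.

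The 3 peaks of a single replicate all lay inside GMDS and all scored below the median of their list. The same share over all single-replicate peaks of the lists is not given here, so nothing is read from these 3 scores. Replicate 1 alone had chr6:1630780-1630983, with a score of 43 (rank 1425), 6.97 kb inside the GMDS end. Replicate 2 alone had chr6:1821792-1822011, with a score of 49 (rank 1355), and chr6:2021771-2022061, with a score of 44 (rank 1425). The last lay 6.54 kb before region 10. Region 2, with scores of 49 and 61, was about as weak and was found in both.

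Neither replicate was higher throughout. Replicate 2 scored higher at regions 1, 2, 5, 7, 8 and 10, which is 6 of 11, and replicate 1 at the other 5; over all 1305 regions made of 1 peak each, replicate 2 was higher in 50.8%. The median log2 ratio of replicate 2 to replicate 1 was 0.19 in the stretch, with an SD of 0.46 over the 11 regions, and 0.03 over all pairs. Whether the median of the stretch differs from that of all pairs was not tested. The most unequal region was the highest of replicate 1, region 3, at a log2 ratio of -0.80, and the most unequal in the other direction were regions 8 and 5, at 0.72 and 0.70. The order of the regions was alike, with a Spearman rho of 0.91 over 11 regions beside 0.71 over all pairs. Pearson's r of the log2 scores was 0.91 beside 0.74. These describe regions that share the same 2 libraries, and they carry no p-value. Region 3 ranked first of the 11 in replicate 1 and second in replicate 2, region 10 second and first, and regions 2 and 5 were the lowest in both.

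**Figure D2:**
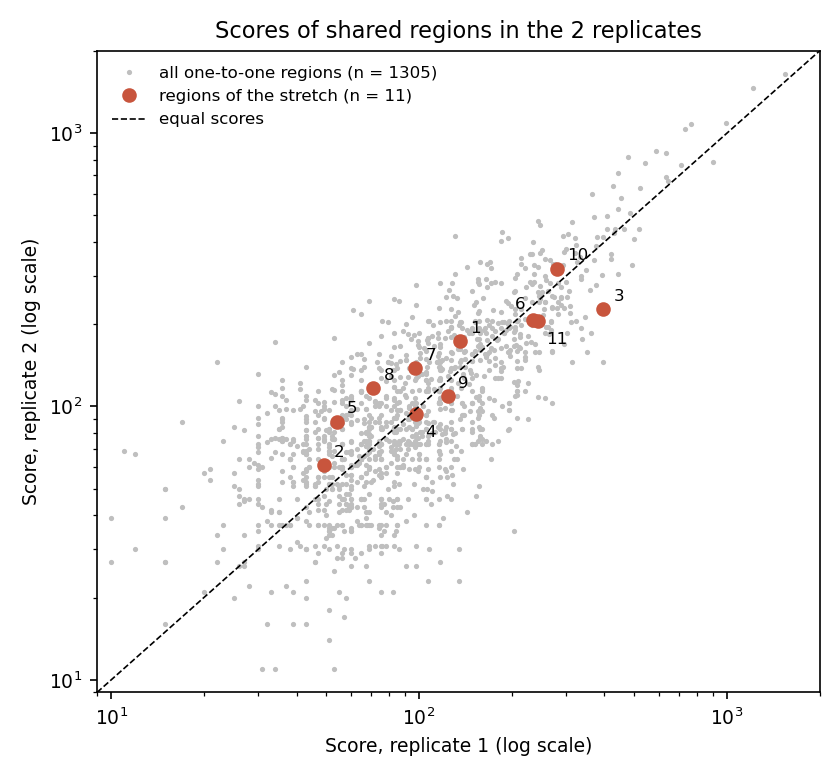
Score in replicate 2 against score in replicate 1, both on log axes, for all 1305 regions made of 1 peak in each replicate (grey) and the 11 regions of the stretch (red, numbered); the dashed line marks equal scores. The red points follow the line from region 2 at 49 and 61 to region 10 at 280 and 319, with region 3 the farthest below it.

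Within the shared regions, the replicates also placed the peaks alike. Some likeness is built in, since a region needs overlapping peaks and peaks without a partner are left out. All pairs, given beside these, were not matched to them in score or width, and the differences were not tested. The overlap of the 2 peaks of a region took from 59.7% to 93.3% of the bases they covered together, with a median of 85.7% beside 79.7% over all pairs. The middles of the 2 peaks differed by a median of 14 bp, beside 24 bp over all pairs, and by 95 bp at most. That most shifted region was region 5, which also had the smallest overlap and the second lowest score in both replicates. In regions 1, 4, 7 and 8 the peak of replicate 1 lay wholly inside that of replicate 2, and the reverse was so in regions 3, 9, 10 and 11.

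**Figure D3:**
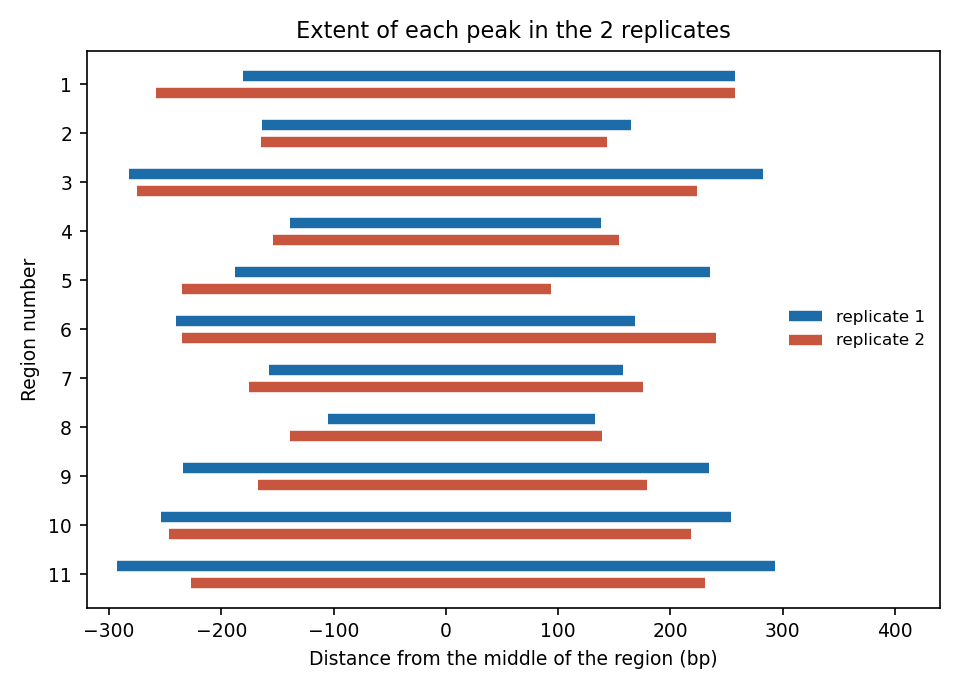
Extent of the peak of replicate 1 (blue) and replicate 2 (red) in each of the 11 regions, in bp from the middle of the region. The bars largely coincide, and region 5 has the smallest overlap, 59.7% of the bases covered.

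The shared regions stood close together. Their 10 gaps ran from 0.403 to 177 kb, with a median of 18.9 kb, beside a median of 821 kb over the 1288 gaps between neighbouring shared regions of the genome. The stretch was picked for its peaks, and a gap inside it cannot exceed 1200 kb. Short gaps thus follow from the choice, and nothing is read from that contrast. Of the 11 regions, 9 had another within 20 kb, a distance picked after the positions were seen, as did 18.4% of all shared regions. Regions 5 and 6 were the 2 without one. The regions fell into 3 groups divided by the gaps of 107 kb, between regions 4 and 5, and 177 kb, between regions 9 and 10, and together spanned 434 kb of the 1200 kb. Just outside the stretch, the next peak towards the chromosome end was in replicate 2 alone with a score of 61, 54.0 kb beyond the border and 451 kb from region 1. The next on the other side was 1469 kb from region 11, in replicate 2 alone with a score of 82.

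**Figure D4:**
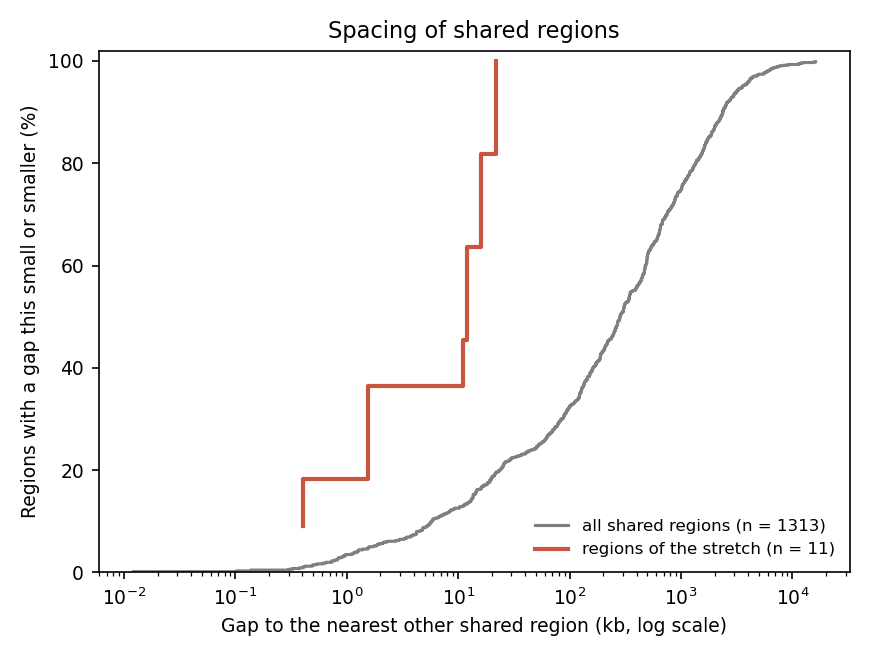
Share of regions (vertical axis, %) whose nearest other shared region is at most as far as the gap on the horizontal axis (kb, log scale), for all 1313 shared regions (grey) and the 11 of the stretch (red). Of the 11 regions of the stretch, 9 had a neighbour within 20 kb, as did 18.4% of all shared regions. The largest nearest gap of the stretch was 21.8 kb.

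In number, the 11 regions of 1200 kb came to 9.17 per Mb, beside 0.425 per Mb over the annotated span of the chromosomes. The chromosomes were divided into 2585 consecutive pieces of 1200 kb, and the stretch is 1 of them. In all, 3 pieces (0.116%) held 11 or more shared regions, the stretch included, and 58.5% held no peak of either replicate. The stretch was chosen for its number of peaks and fits 1 piece exactly. A run of peaks elsewhere, such as that around ZNF608, can be cut by a border between pieces. Nothing is thus read from the 0.116%. GMDS with its 9 regions was level with ZNF608, the other protein-coding gene with 9, and no gene had more. A shared region lay inside 2.25% of all protein-coding genes, and of the 447 such genes 360 had 1. Most long genes had none: of 315 protein-coding genes of 500 kb or more, 240 had 0 regions inside, and their mean was 0.451. GMDS held 14.5 regions per Mb of gene, and the shorter ZNF608 held 80.4 per Mb.

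**Figure D5:**
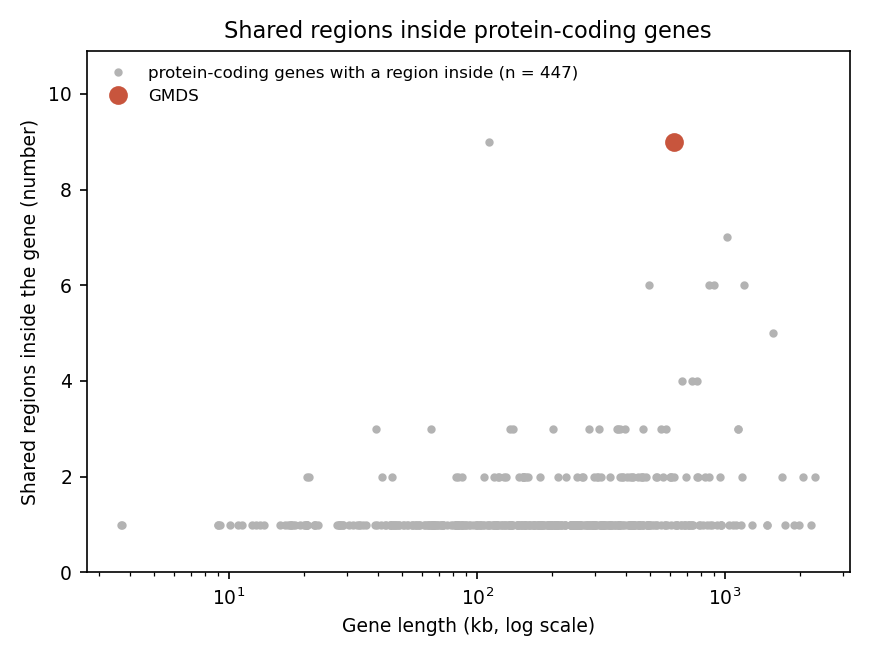
Number of shared regions inside a protein-coding gene, away from its ends, against gene length (kb, log scale), for the 447 genes with at least 1 (grey) and GMDS (red). GMDS stands at 9 with a length of 621.8 kb, at the same height as a gene of 112 kb, which is ZNF608.

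Stretches of peaks at other loci, ZNF608 and PAX9, were set beside this one. A window of 1200 kb centred on ZNF608, a zinc-finger gene of chromosome 5, held 16 shared regions with a median gap of 20.3 kb and a span of 1012 kb, and one centred on PAX9, a developmental transcription factor gene of chromosome 14, held 6 with a median gap of 50.1 kb. Their highest scores in replicate 1 were 376 and 902, beside 396 here. In replicate 2 they were 385 and 785, beside 319 here, so the order against ZNF608 differed between the replicates. The median lower percentiles were 66.4 and 68.2, close to the 70.6 of the GMDS stretch. The GMDS regions were thus spaced much as those at ZNF608, by the median gap, over a span of 434 kb, and none of them reached the top score at PAX9. These differences were not tested, and stretches with more regions than the PAX9 window exist elsewhere.

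The related forkhead cluster of chromosome 16 held nothing comparable. FOXF1, FOXC2 and FOXL1 lie side by side there, FOXF1 and FOXC2 being the closest relatives of FOXF2 and FOXC1. From 500 kb before the first to 500 kb after the last of them (chr16:86010527-87083478), 0 peaks were called in either replicate. As 58.5% of 1200 kb pieces of the genome were also empty, a window without a peak is common. The pieces were not matched to this window for genes or for how well reads can be placed. The 58.5% may therefore be too high as a background for it.

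Peaks also lay at 4 other forkhead genes. By symbol, 52 protein-coding genes matched the forkhead naming, 1 of which, FOXL2NB, is a neighbour of a forkhead gene and not one itself. A peak of either replicate lay inside or within 1000 bp of an end of 5 of the 52, and of 5.33% of all protein-coding genes. A shared region lay in the body of 3 of the 52, and of 2.25% of all protein-coding genes; gene length was not matched and the difference was not tested. FOXC1 was the 1 gene with a shared region within 1000 bp of an end. FOXO3, a stress-response factor, had a peak of replicate 2 alone, with a score of 57, 59 bp past its last base, and a shared region 7.78 kb inside that end with scores of 52 and 78. FOXP2, a factor of neural and lung development, held 2 shared regions, with scores of 257 and 107 at chr7:114530067-114530531 and of 336 and 300 at chr7:114653335-114653962 (positions of replicate 1), and 2 peaks of replicate 1 alone. FOXP1, its close relative, held 1 shared region with scores of 74 and 88 and 1 peak of replicate 1 alone, and FOXO6 held 1 peak of replicate 2 alone with a score of 73. Of the 52 promoter windows that the table holds for these symbols 0 were overlapped by a peak, where 0.857% of all windows were.

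Among the genes of fucose metabolism only GMDS held a peak, a share near that of all protein-coding genes. The list held 19 genes, from GDP-fucose synthesis (GMDS, GFUS, FCSK, FPGT) and transport to the fucosyltransferases. GMDS was the 1 gene of the 19 with a peak of either replicate inside it or within 1000 bp of an end, and the other 18 had none. GFUS, which carries out the step after GMDS, was among the 18. By the same measure 5.33% of all protein-coding genes had a peak, so 1 in 19 is near the background. Protein-coding genes with a shared region in the body made up 2.25% of the annotation. GMDS was chosen by its peaks, so the count of 1 in 19 is a description.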

How the data were processed

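ARID1B ChIP-seq of HEK293FRT cells was read from 1 deposited peak list per replicate. Formaldehyde fixation at 1% lasted 10 minutes and libraries had 15 cycles of amplification, per the labels' protocols. The build hg38 and the tools MACS2 2.1.2, Bowtie2 2.3.4.1 and bcl2fastq 2.20.0.422 are named in the submitters' processing notes. The settings, the peak threshold, the handling of duplicate reads, the antibody and whether the input was the control are not given in the sources read. Each peak of the deposited lists has a position and a score in whole numbers; its scale is not given in those sources. It was used for ranks within a list, for correlations between the replicates, and as a log2 ratio of the replicates. No read counts are in the lists, so depth is unknown. PCR duplicates, if kept, would raise scores.

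Starts were converted to count from 1. Peaks that overlapped by at least 1 bp were shared, and connected shared peaks formed a region. Genes came from the RefSeq table of GRCh38.p14, the assembly hg38 names, without 718 genes of unplaced or alternate sequences, and promoters, with their strand, from the RefSeq promoter table. SLC35C2, FUT10 and FUT11 were matched as older symbols of SLC35H1, POFUT3 and POFUT4. No genome was given, so sequences under the peaks were not analysed here. The members, gene lists and comparison loci were chosen with earlier results of these data known. The genes named were the 4 members, genes a peak of the stretch overlaps or lies near, forkhead and fucose genes with a peak, and the comparison loci; FOXL2NB and GFUS were added after the values were seen. No test was made, since there is 1 group of 2 replicates. The region builder was tested on simulated data. Alternatives were 50% reciprocal overlap, centres within 200 bp, peaks at or above the median score, gene end windows of 500 and 5000 bp, the mean of the percentiles, gaps between centres, and each replicate alone. Python 3.11.15, pandas 2.3.3 and scipy 1.17.1 were used.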

Additional observations from a re-analysis of the deposited data

How the results depend on the processing

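Of 38 alternatives over 8 results, 29 stayed within the limit set for their result. A count had to stay within 1.5 times the value, and a share inside its interval. The median gap and percentile had to stay within the SD of the values of each replicate alone, which are themselves among the alternatives. The log2 ratio had to keep its sign and change by less than 0.46, the SD over the 11 regions. Under 50% reciprocal overlap and with centres within 200 bp, all 8 results kept their values. The smallest overlap of the stretch, 59.7%, and the largest shift of the middles, 95 bp, already met both rules. These alternatives, counted among the 29, were thus bound to stay. With only the peaks that reached their list's median score, 8 shared regions were left, 7 of them inside GMDS. The share of replicate 1 peaks shared was then 100%, the number of shared regions at a forkhead gene end was 0 (region 2 scored below both medians), the median gap was 28.9 kb, the median percentile was 84.4, and the median log2 ratio changed sign, from 0.19 to -0.12. Leaving out the lowest-scoring regions could only raise that median percentile, and leaving out a region between others merges its gaps into a wider one. The mean of the percentiles gave a median of 73.2 in place of 70.6. With each replicate alone, the median gap was 14.1 to 16.8 kb in place of 18.9 kb, and the median percentile 70.2 to 73.4. The number of peaks in the stretch was then 12 to 13, and the number inside GMDS 10 to 11. Each replicate alone holds every shared peak and the few unshared ones already given. Its counts in the stretch, inside GMDS and at a forkhead gene end were thus also bound to stay. Region 2 covers the FOXC1 end itself, so gene end windows of 500 and 5000 bp were bound to find it. No other forkhead end was reached with either window. No paired analysis was possible because the replicates belong to 1 group. The lists hold no read counts, so how far depth limits the weakest peaks was not tested.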
